A study of Mus musculus with 4 samples.

Results

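The 6 Gata transcription factors, Gata1 to Gata6, were examined in hearts of mouse embryos at embryonic day 9.5, with or without a conditional deletion of Salvador (Sav1), a scaffold protein of the Hippo kinase cascade. The members were taken by gene symbol from the platform's probe table, which gave 7 of the 29922 probes to these genes, with 2 for Gata4 and 1 for each of the others. For every gene the brightest probe stood for it, and so the 6 genes were 6 of 16675 tested. Both groups held whole hearts from mice of a C57bl/6 and 129 hybrid background: 2 pools labelled Salv CKO and 2 control pools labelled wild-type. No source used here gives the Cre driver of the conditional knockout, how many hearts made up a pool or any allele that the controls carried. The study's question was which genes the Hippo pathway regulates as the heart forms.

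Gata factors bind DNA through zinc fingers, at short sites built around the letters GATA. Gata4, Gata5 and Gata6 are the members known from heart muscle, endocardium and endoderm, where Gata4 and Gata6 work with Nkx2-5 and Tbx5 in turning on heart muscle genes. Gata1 and Gata2 drive red cell, platelet and blood progenitor fates, Gata2 is also an endothelial factor, and Gata3 acts in T cells, sympathetic neurons and the inner ear. Gata3 is counted with the blood members here.

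RNA of each pool was hybridised to a one-colour array, and the authors' background-subtracted intensities were quantile normalised and put on the log2 scale. Median deposited intensities were 71.1 and 76.1 in Salv CKO and 77.5 and 101 in control. Sav1 read log2 9.19 and 9.13 in the Salv CKO pools, against 9.56 and 9.30 in the control pools (difference -0.27, limma adjusted p = 0.266); no source places its probe inside or outside the deleted exons, and its level therefore does not check the labels. Each difference given is Salv CKO minus control on the log2 intensity scale, with limma's standard error (SE), and a gene was called at an adjusted p under 0.05 over all 16675 genes. The limit for a signal above background was an intensity of 16 (log2 4). All 14 cardiomyocyte markers were above it on the 4 arrays, as a heart label requires.

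Of the 6 Gata genes 2 were called, both lower in Salv CKO (Gata4 and Gata5), and 0 were called higher. Over all genes 5.7% were called lower and 4.92% higher. Gata6, the third cardiac member, was not called and lay slightly above the controls. Gata1 and Gata2 lay below the controls in both pools without passing the test, and Gata3 was near background.

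Gata4, a factor needed for heart tube formation and heart muscle growth, had intensities of 1217 and 1153 in the Salv CKO pools, against 2690 and 2723 in the control pools. Both Salv CKO pools were thus below both controls, and within each group the pools were close together. On the log2 scale Gata4 was at 10.21 ± 0.05 in Salv CKO and 11.40 ± 0.01 in control (SD, n = 2 each). The difference was -1.19 ± 0.08 (SE, limma adjusted p = 0.00661), with a 95% interval of -1.39 to -0.99. That is 2.28-fold lower, or 43.8% of the control level; 1.03% of all genes were called and at least 2-fold lower. In RNA of whole hearts, fewer cells that express a gene and less of its RNA per cell cannot be told apart.

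The second Gata4 probe was much dimmer, at intensities of 31.8 and 46.2 in Salv CKO, against 64.8 and 105 in control. It showed the same order of the groups, and all 4 values were above background. With every probe fitted as a feature of its own its difference was -1.11 ± 0.40 (SE, limma adjusted p = 0.205), close to that of the bright probe but with a spread between pools that left it uncalled. In that fit 2.94% of the 29922 probes were called lower.

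Gata5, which is best known from the endocardium, was at intensities of 803.5 and 691.8 in Salv CKO, against 1390 and 1156 in control. The groups did not overlap. It was at log2 9.54 ± 0.15 in Salv CKO and 10.31 ± 0.19 in control (SD, n = 2 each), which gave -0.77 ± 0.14 (SE, limma adjusted p = 0.0347, 95% interval -1.12 to -0.41) and 58.8% of the control level. Neither call held when 1 array was left out, where no gene of the arrays was called, or when the variance was fitted without an intensity trend (limma adjusted p = 0.125 for Gata4 and 0.165 for Gata5). The Gata5 call was also lost with all values floored at 16 (limma adjusted p = 0.122) or 64 (0.128), with its difference still at -0.77.

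Gata6, a factor of heart muscle, the outflow tract and endoderm, read 6861 and 7352 in Salv CKO, against 6014 and 6198 in control. Both Salv CKO pools were the higher ones. Its log2 level was 12.79 ± 0.07 in Salv CKO and 12.58 ± 0.03 in control (SD, n = 2 each). The difference of 0.22 ± 0.07 (SE, limma adjusted p = 0.130) had a 95% interval of 0.04 to 0.40, and so left out a fall of the size seen for Gata4 under this scaling. The sign depended on the scaling: it was -0.30 with the values as deposited and -0.03 when array medians were aligned. Those scalings also put the median of all genes above background at -0.44 and -0.17. Relative to that median Gata6 was at 0.14 with the values as deposited, against 0.26 after quantile normalisation. Aligning medians divides each array by a constant, which moves Gata6 and that median alike. The relative value of Gata6 therefore had to stay at 0.14 with medians aligned, which is no separate check.

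The ratios between the 3 cardiac members stood apart in the 2 groups. A ratio within an array is not moved by multiplying the array by 1 factor, but quantile normalisation can move it. After quantile normalisation the log2 ratio of Gata4 to Gata6 was -2.50 and -2.67 in Salv CKO, against -1.16 and -1.19 in control. The groups stood apart by -1.41, and by -1.38 with the values as deposited. For Gata5 over Gata6 the ratio was -3.09 and -3.41 in Salv CKO, against -2.11 and -2.42 in control (difference -0.98, or -0.93 as deposited). Gata4 over Gata5 gave 0.60 and 0.74 in Salv CKO, against 0.95 and 1.24 in control (difference -0.43, or -0.45 as deposited). With 2 pools a group an exact permutation test of any one such ratio cannot go below p = 0.333, so these ratios are given without a test. A ratio within an array shows unequal change and not which gene moved.

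**Figure D1:**
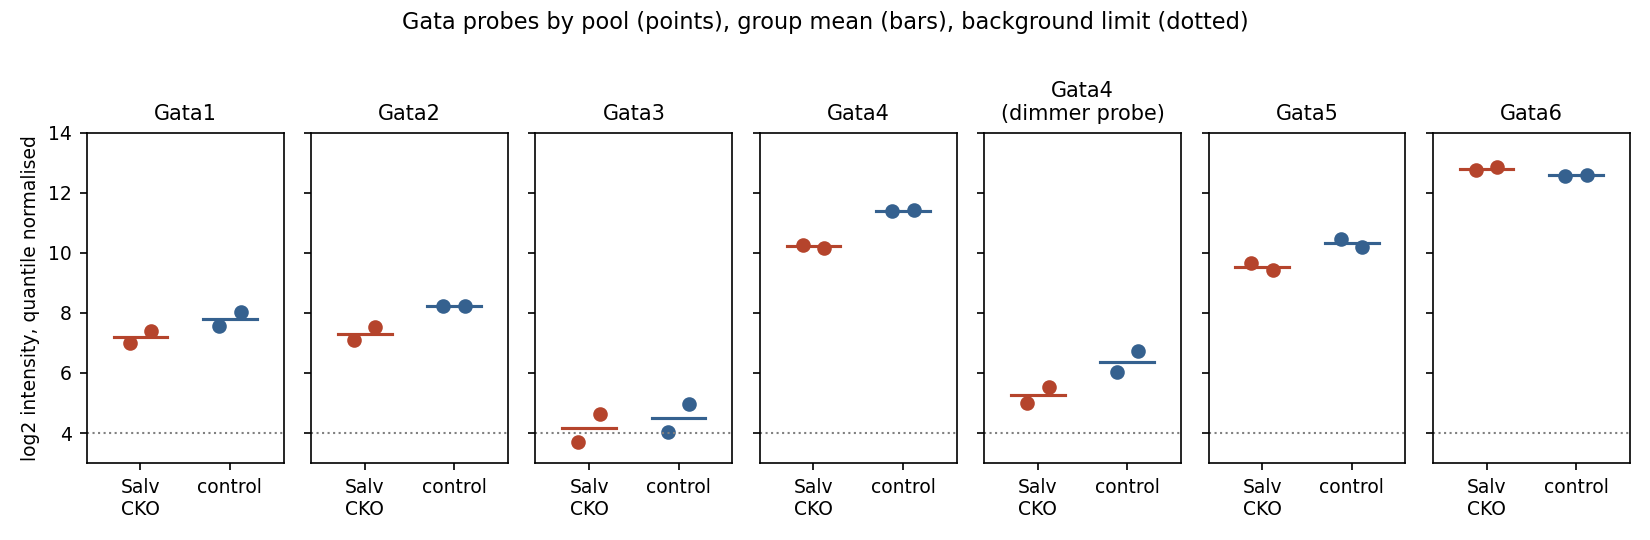
Log2 intensity after quantile normalisation (vertical axis) of the 7 Gata probes in each pool (points), with the mean of the 2 Salv CKO pools and of the 2 control pools as bars and the background limit of log2 4 dotted. Both Gata4 probes and Gata1, Gata2 and Gata5 have both Salv CKO pools below both controls, Gata6 has them above, and Gata3 lies at the limit.

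Among the blood members, Gata1, the factor of red cells and megakaryocytes, had intensities of 129 and 168 in Salv CKO, against 189 and 260 in control. The groups did not overlap, but on the log2 scale the pools of each group lay farther apart than the nearest pools of the 2 groups. At log2 7.20 ± 0.27 in Salv CKO and 7.79 ± 0.32 in control (SD, n = 2 each), the difference was -0.59 ± 0.25 (SE, limma adjusted p = 0.218, 95% interval -1.24 to 0.05).

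Gata2, a factor of blood progenitors and endothelium, was at 136 and 186 in Salv CKO, against 301 and 301 in control. The controls were nearly equal and both Salv CKO pools lay below them. Its difference of -0.92 ± 0.21 (SE, log2) missed the threshold (limma adjusted p = 0.0573, 95% interval -1.46 to -0.39). The adjusted p was 0.0201 with the values as deposited, 0.0402 with array medians aligned, and 0.0214 when the 12402 genes above background on all arrays were the ones tested. It was 0.148 and 0.180 with values floored at 16 and 64, 0.167 without the intensity trend of the variance, and 0.189 to 0.291 with 1 array left out. By size the Gata2 difference lay between those of Gata4 and Gata5. The SD between pools was 0.32 in Salv CKO, against 0.0024 in control.

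Gata3 was measured above background on 1 of 2 Salv CKO arrays and on both controls. Its intensities of 13.04 and 25.1 in Salv CKO overlapped those of 16.4 and 31.6 in control. The difference of -0.33 ± 0.61 (SE, limma adjusted p = 0.781) had an interval from -1.91 to 1.25, so that at this signal a change of 2-fold in either direction was not detectable. Without Salv CKO pool 1 or control pool 2 its sign turned (0.14 in each case).

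**Figure D2:**
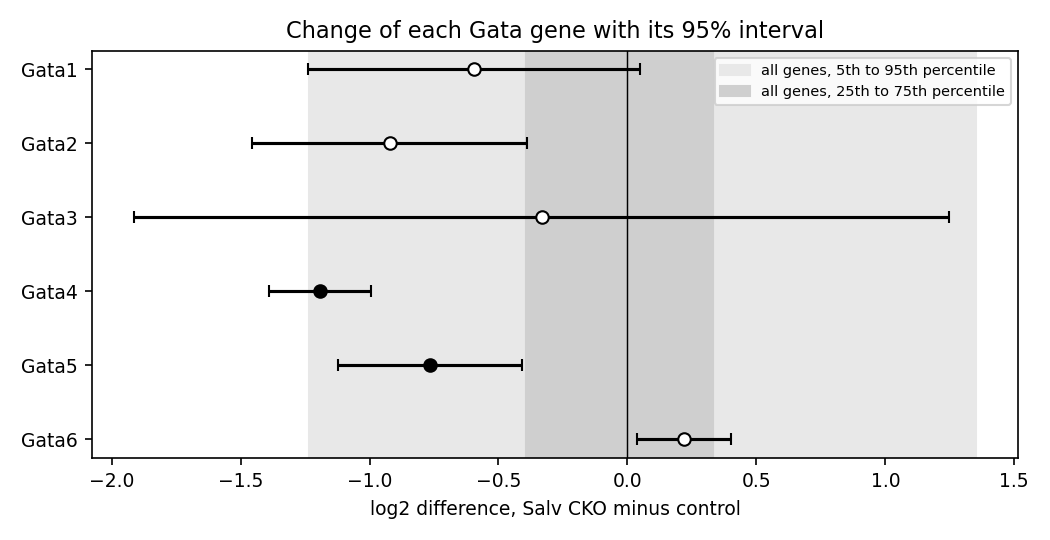
Log2 difference in Salv CKO minus control (horizontal axis) of each Gata gene, with its 95% interval from limma as bars; filled points passed an adjusted p of 0.05, and the shaded bands hold the 25th to 75th and the 5th to 95th percentile of all 16675 genes. Gata4 (-1.19) and Gata5 (-0.77) are filled, the interval of Gata2 also lies below 0, and those of Gata1 and Gata3 cross it.

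For 4 of the 6 genes both Salv CKO values were under both control values, which was so for 29% of all genes, and for 1 of 6 (Gata6) both were over them, which was so for 25.2%. Set against each other, the cardiac and the blood members did not separate. The mean difference was -0.58 over Gata4, Gata5 and Gata6 (-1.19 to 0.22) and -0.62 over Gata1, Gata2 and Gata3 (-0.92 to -0.33). Cardiac minus blood, as a difference of mean log2 intensity per array, was 4.95 and 4.29 in Salv CKO, against 4.85 and 4.31 in control. The groups overlapped, with means 0.04 apart and SDs of 0.47 in Salv CKO and 0.38 in control. The level of that difference reflects the probes and has no meaning of its own. With 1 array left out the gap between the groups ranged from -0.29 to 0.37. It was -0.13 with the values as deposited. Aligning medians or 75th percentiles divides each array by 1 factor and so cannot change that gap. The blood mean includes Gata3, which was near background and varied between pools of a group.

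**Figure D3:**
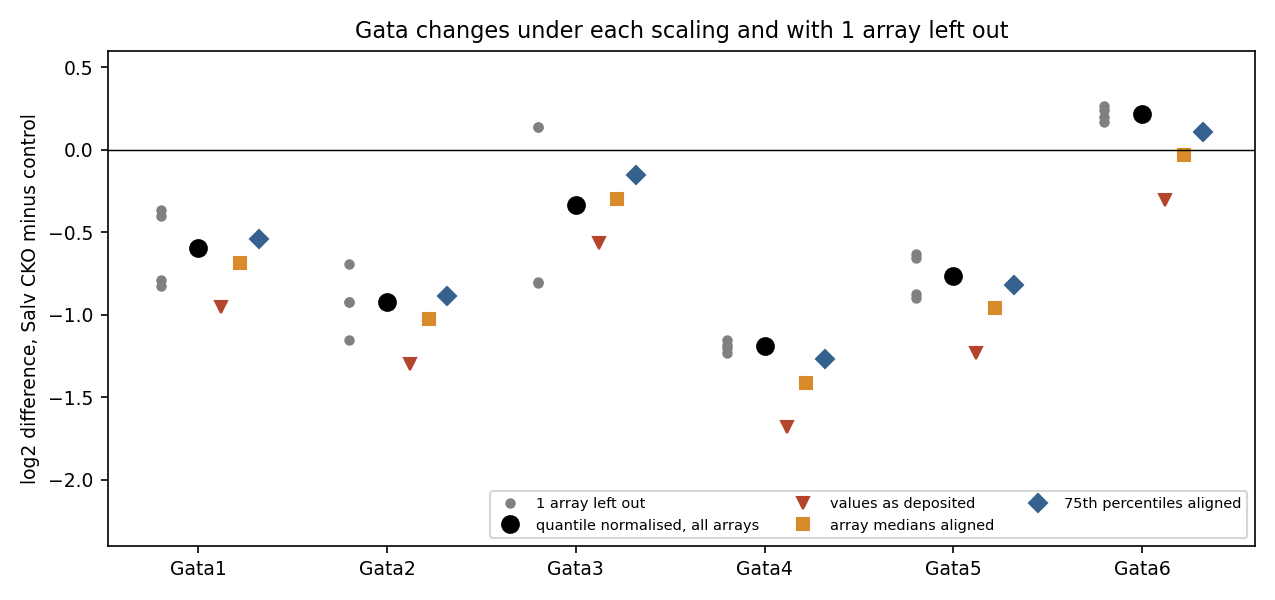
Log2 difference in Salv CKO minus control (vertical axis) of each Gata gene with all 4 arrays after quantile normalisation (large black points), with 1 array left out (grey) and under 3 other scalings (coloured). Gata4 stays between -1.68 and -1.15 and Gata5 between -1.23 and -0.63, whereas Gata6 and Gata3 cross 0.

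Genes for proteins known to bind Gata factors were called in both directions. Of 19 partners listed 18 were measured, of which 3 were called lower (16.7%) and 1 higher (5.56%), against 5.7% and 4.92% of all genes. The median difference was -0.06, against -0.04 over all genes. The list median moved to -0.21 without control pool 1 and to -0.58 on the deposited values. Nkx2-5, the homeobox partner of Gata4, was at 654 and 806 in Salv CKO, against 2649 and 1850 in control, a difference of -1.61 ± 0.21 (SE, limma adjusted p = 0.0168). Lmcd1, a LIM protein known to restrain Gata6, was lower by a similar factor to Gata4, at 287.5 and 263 in Salv CKO, against 586 and 581 in control (-1.08 ± 0.12, limma adjusted p = 0.0129). The Friend of Gata protein Zfpm1, the cofactor of Gata1, fell less, by 0.34 on the log2 scale (limma adjusted p = 0.0350). Its heart counterpart Zfpm2 was at -0.45 ± 0.14 and was not called (limma adjusted p = 0.114). Sall4, a zinc finger factor of embryonic progenitors, was the one that rose (0.94 ± 0.14, limma adjusted p = 0.0211). The cardiac partners Tbx5 (-0.22), Tbx20 (0.22), Mef2c (-0.01) and Hand2 (0.10), named after their values were seen, were not called. Of 8 other genes with a GATA-type zinc finger 1 was called lower (12.5%, against 5.7% of all genes), the chromatin protein Mta2 (-0.37 ± 0.07, limma adjusted p = 0.0328). The median of these 8 was -0.24.

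Of 24 heart genes listed as known targets of the cardiac members, 22 were measured. Of these 8 were called lower (36.4%, against 5.7% of all genes), Nkx2-5 among them, and 0 higher, and the median difference was -0.41. Without the 4 targets saturated on any array (Myh6, Myl3, Actc1 and Cdk4) it was -0.47. After Nkx2-5 came the gap junction gene Gja5, with 228 and 201 in Salv CKO, against 542 and 559 in control (-1.36 ± 0.13, limma adjusted p = 0.0110). Its other probe, not above background on any array, gave 1.83 ± 1.38 without a call. Nppb, which encodes a natriuretic peptide and is a classic Gata4 target, was at 5690 and 6034 in Salv CKO, against 9866 and 10922 in control (-0.83 ± 0.08, limma adjusted p = 0.0110). Myh6, the alpha myosin heavy chain, read 40492 and 37426 in Salv CKO, against 63275 and 60744 in control, was saturated on both control arrays and was at least 1.59-fold lower in Salv CKO (limma adjusted p = 0.0121). Below these came Tnni3, Smad6, Tnnc1 and Bcl2l1, at -0.66 to -0.50. Uncalled targets, named after their values were seen, included the protease Corin (-1.25, limma adjusted p = 0.149) and the sodium-calcium exchanger Slc8a1 (-0.37, 0.0838). In the other direction, uncalled heart targets reached as high as 0.35. With the mean of all probes of a gene in place of the brightest probe the list median was -0.17.

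The stretches before the start sites of a few of these genes are printed to show the letters a Gata protein can bind; they come from RefSeq, build GRCm38.p6, 250 bases before each start, 5′ to 3′ on the gene's strand. The words AGATAA and AGATAG and the words TGATAA and TGATAG were searched on both strands and are in capitals; on the opposite strand TGATAA reads TTATCA and AGATAA reads TTATCT. Nppb carries a pair of words close together, Gfi1b, Alas2 and Hbb-y are red cell targets whose values follow, and Gata5 is the called member with an entry in the table. The target stretches shown each hold a word, and that of Gata5 holds none. Of the called heart targets that fell most, Nppb and Myh6 held words, and Nkx2-5 and Gja5 held none. The called platelet and endoderm genes given below held none in any window.
Nppb, chr4:147985650-147985899, plus strand: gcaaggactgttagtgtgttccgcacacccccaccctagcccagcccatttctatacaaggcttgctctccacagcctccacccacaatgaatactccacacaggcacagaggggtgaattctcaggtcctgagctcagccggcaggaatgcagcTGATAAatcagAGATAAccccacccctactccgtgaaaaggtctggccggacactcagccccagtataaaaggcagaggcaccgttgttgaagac
Gfi1b, chr2:28621983-28622232, minus strand: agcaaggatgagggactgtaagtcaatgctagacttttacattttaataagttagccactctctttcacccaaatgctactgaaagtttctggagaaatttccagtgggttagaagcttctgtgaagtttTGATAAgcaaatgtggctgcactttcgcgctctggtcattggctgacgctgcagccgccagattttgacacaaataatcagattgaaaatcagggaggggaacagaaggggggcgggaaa
Alas2, chrX:150547167-150547416, plus strand: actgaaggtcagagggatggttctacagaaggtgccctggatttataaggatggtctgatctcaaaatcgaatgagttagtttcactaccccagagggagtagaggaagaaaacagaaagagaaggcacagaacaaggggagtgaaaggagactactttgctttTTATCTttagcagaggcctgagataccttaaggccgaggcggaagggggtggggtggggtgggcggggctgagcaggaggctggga
Hbb-y, chr7:103853208-103853457, minus strand: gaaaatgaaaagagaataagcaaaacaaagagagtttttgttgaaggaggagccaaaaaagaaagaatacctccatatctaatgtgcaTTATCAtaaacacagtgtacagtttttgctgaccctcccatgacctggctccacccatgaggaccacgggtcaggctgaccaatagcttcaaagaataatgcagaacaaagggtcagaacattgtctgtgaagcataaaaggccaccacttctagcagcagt
Gata5, chr2:180334680-180334929, minus strand: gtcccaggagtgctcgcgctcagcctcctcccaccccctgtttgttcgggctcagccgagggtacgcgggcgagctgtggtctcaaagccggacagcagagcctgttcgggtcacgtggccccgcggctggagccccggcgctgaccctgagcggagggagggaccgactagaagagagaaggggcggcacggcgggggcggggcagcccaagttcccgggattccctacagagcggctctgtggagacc

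The Nppb words began 95 and 84 bases before the start, the Gfi1b word 120, the Alas2 word 86 and the Hbb-y word 162 before it. In all, 26.5% of 32851 promoters in the table held at least 1 such word. Among promoters of the heart targets 9 of 28 did (32.1%), of the red cell targets 11 of 18 (61.1%), of the platelet targets 3 of 9 (33.3%), of the vascular targets 3 of 16 (18.75%), of the Gata3 genes 2 of 14 (14.3%), of the endoderm genes 4 of 17 (23.5%), of the partners 4 of 21 (19.0%), of the zinc finger relatives 3 of 8 (37.5%), and of the Gata genes themselves 0 of 5, from 4 genes with an entry (Gata1, Gata2, Gata3 and Gata5). The target lists were drawn up from known Gata regulation, so the words are no separate evidence for it. A match describes the letters, not binding, and a window without one says nothing of other sites.

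Among red cell targets of Gata1, 6 of 18 measured genes, of 23 listed, were called lower (33.3%, against 5.7% of all genes) and 0 higher. The median difference was -0.33. Gfi1b, whose promoter is shown above, encodes a transcriptional repressor needed for red cell and megakaryocyte development. It was at 83.7 and 84.6 in Salv CKO, against 201 and 210 in control (-1.29 ± 0.19, limma adjusted p = 0.0216). Alas2, the first enzyme of haem synthesis in red cells, was at 7807 and 7845 in Salv CKO, against 15468 and 14555 in control (-0.94 ± 0.07, limma adjusted p = 0.00717). The embryonic globin Hbb-y was at 8241 and 5791 in Salv CKO, against 13012 and 16449 in control (-1.08 ± 0.20, limma adjusted p = 0.0387). In each of these 3 both Salv CKO values were under both control values, which was so for 29% of all genes. The membrane skeleton gene Epb4.9 (-0.78 ± 0.10), Slc4a1 (-0.62) and Zfpm1 completed the called genes. The globin Hbb-bh1, named after its value was seen, was at -0.26 and not called (limma adjusted p = 0.0628). Uncalled red cell targets reached as high as 0.36.

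Of 11 measured platelet targets 2 were called lower (18.2%, against 5.7% of all genes) and 0 higher. Uncalled platelet targets reached as high as 0.82, and 8 of the 11 were above background on all arrays. The list median was -0.31, against -0.12 without Salv CKO pool 1, -0.14 without control pool 2 and 0 with values floored at 16. The called genes, both also platelet markers, were platelet factor 4, listed as Cxcl4 (434 and 403 in Salv CKO, against 759 and 1015 in control), and the integrin Itga2b (241 and 238 in Salv CKO, against 413 and 488 in control). The differences were -1.07 ± 0.17 and -0.91 ± 0.14 (SE, limma adjusted p = 0.0255 and 0.0265). Of 17 measured vascular targets of Gata2 4 were called lower (23.5%, against 5.7% of all genes) and 0 higher, with a median of -0.51. These were the nitric oxide synthase Nos3 (-0.78 ± 0.10), the adhesion proteins Cdh5 (-0.77 ± 0.09) and Pecam1 (-0.74 ± 0.07), and Vcam1 (-0.72 ± 0.06), with limma adjusted p of 0.00912 to 0.0158. Uncalled vascular targets reached as high as 0.39. Pecam1 was lower on its other probe as well (-1.07), whereas the other probe of Vcam1 was above background on none of the 4 arrays and gives no difference.

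In lists of genes that act with Gata factors outside heart and blood, the called genes were all higher in Salv CKO. Uncalled genes reached as low as -2.73 in the Gata3 list and -1.48 in the endoderm list. Of 10 measured genes of Gata3's nerve, ear and pharynx programmes 3 were called higher (30%, against 4.92% of all genes) and 0 lower. The median was 0.15 (-0.18 with the values as deposited, 0.23 without Salv CKO pool 1 and 0.10 without Salv CKO pool 2). The pharyngeal T-box factor Tbx1 was at 575 and 505 in Salv CKO, against 193 and 204 in control (1.44 ± 0.14, limma adjusted p = 0.0104). Its partner in pharynx and ear, Eya1, was at 537 and 539 in Salv CKO, against 193 and 211 in control (1.41 ± 0.13, limma adjusted p = 0.0101), and Pax8 rose by 1.15 ± 0.14. The other probe of Tbx1 was higher as well (2.50), and that of Eya1 was called higher but was above background on 3 of the 4 arrays. Of 14 measured endoderm genes that act with Gata4 and Gata6, 4 were called higher (28.6%, against 4.92% of all genes) and 0 lower (median 0.26, or -0.14 as deposited and 0.57 without control pool 1). The called genes were the retinol carrier Rbp4 (2.31 ± 0.10), alpha-fetoprotein Afp (1.56 ± 0.16), and the forkhead factors Foxa1 (1.35 ± 0.13) and Foxa3 (1.25 ± 0.17), with limma adjusted p of 0.00615 to 0.0196. Gata6, which marks endoderm as well as heart, was not called in the same pools.

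**Figure D4:**
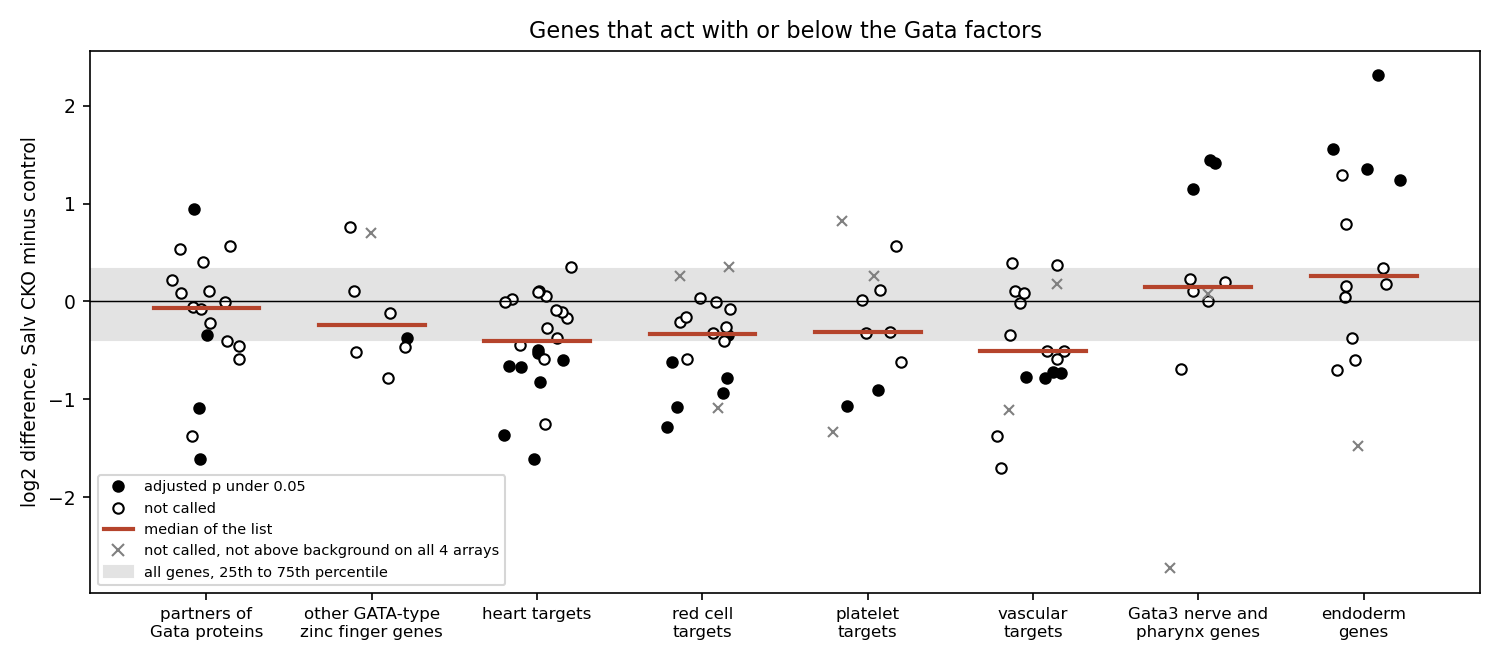
Log2 difference in Salv CKO minus control (vertical axis) of each measured gene in 8 lists of Gata partners, relatives and targets; filled points passed an adjusted p of 0.05, crosses are uncalled genes that were not above background on all arrays, red bars are list medians and the grey band spans the 25th to the 75th percentile of all genes. Called genes of the heart, red cell, platelet and vascular lists all lie below 0, and those of the Gata3 and endoderm lists all lie above it.

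Cell type markers moved in the same pools, and the target lists share genes with them: 5 of the 22 heart targets, 7 of the 18 red cell, 7 of the 11 platelet, 4 of the 17 vascular and 7 of the 14 endoderm genes were also markers. Of the 14 cardiomyocyte markers 5 were called lower and 0 higher (median -0.48), but 6 of them (Myh6, Myl2, Myl3, Myl4, Actc1 and Actn2) were saturated on at least 1 array. Of the other 8, 4 were called lower and 0 higher (median -0.64), and their summed intensity was 124117 and 126291 in Salv CKO, against 148039 and 184787 in control. Of 7 measured primitive red cell markers 3 were called lower and 0 higher (median -0.62), and the 6 that were not saturated summed to 51284 and 48759 in Salv CKO, against 72916 and 75726 in control. The 9 endothelial and endocardial markers (4 lower, median -0.65) summed to 13978 and 13320 in Salv CKO, against 22877 and 22184 in control, and the 7 platelet markers (2 lower, median -0.32) to 1142 and 1117 in Salv CKO, against 1706 and 2105 in control. Markers of other tissues were higher: 4 of 10 endoderm, 4 of 8 neural, 4 of 8 neural crest and 3 of 6 epicardial markers were called higher and 0 of each lower. Their sums were 9323 and 9345 in Salv CKO, against 3790 and 3903 in control, for endoderm, 13437 and 13089 in Salv CKO, against 5526 and 6442 in control, for neural tissue, 2777 and 2889 in Salv CKO, against 1403 and 1366 in control, for epicardium, and 49662 and 49740 in Salv CKO, against 14505 and 14219 in control, for neural crest. Defining markers not above background on any array were Foxd3 of neural crest, Wt1 and Tcf21 of epicardium and Epb42 of red cells. Over all genes 5.7% were called lower and 4.92% higher. The part of cell makeup in the Gata values was not tested.

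Each member was then set against the mean log2 intensity of the markers that were above background on all arrays and saturated on none, a choice of markers made after seeing the data. Relative to 8 such cardiomyocyte markers, whose own mean difference was -0.69, Gata4 was at -2.23 and -2.34 in Salv CKO, against -1.72 and -1.84 in control, a further -0.50. With all 14 cardiomyocyte markers, including those at the ceiling, that value was -0.74. Gata5 overlapped relative to the same 8 markers, at -2.83 and -3.07 in Salv CKO, against -2.68 and -3.08 in control (-0.07). Gata6 was higher relative to them by 0.91, at 0.27 and 0.34 in Salv CKO, against -0.56 and -0.66 in control. Relative to the 9 endothelial and endocardial markers the differences were -0.56 for Gata4, -0.13 for Gata5 and 0.85 for Gata6, with no overlap. For Gata5 the groups nearly met, at -0.43 and -0.52 in Salv CKO, against -0.27 and -0.41 in control. Relative to the 10 endoderm markers, which had a mean difference of 1.08, the differences were -2.27 for Gata4 and -0.86 for Gata6, again with no overlap.

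Gata1 overlapped relative to 5 red cell markers, at -5.20 and -4.71 in Salv CKO, against -5.21 and -4.83 in control (0.06), and relative to 6 platelet markers (-0.15). Gata2 overlapped relative to the endothelial markers, at -3.00 and -2.41 in Salv CKO, against -2.48 and -2.36 in control (-0.29), and relative to the red cell markers (-0.26). Relative to the platelet markers it did not overlap, at -0.22 and 0.27 in Salv CKO, against 0.60 and 0.41 in control (-0.48). With the saturated globin Hba-x kept among the red cell markers the Gata2 difference was -0.37, with no overlap. The dim Gata3 was at -1.86 relative to 7 neural crest markers, whose own mean difference was 1.53, with no overlap. Relative to the endothelial markers, whose own mean difference was -0.64, Gata3 was at 0.30, with overlap. These ratios were not tested.

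Genes with the profile most like that of each member over the 4 arrays were ranked by the root mean square distance between log2 profiles centred on their own means, among 10751 candidates above background on all arrays. For Gata4 the nearest were Ptrf, a coat protein of caveolae (0.0046), the AP-1 factor Jund (0.015) and the ventricular homeobox factor Irx4 (0.036), which were themselves called lower at -1.19, -1.17 and -1.22. Nearest to Gata5 were Tle6, Ppm1j and Dpysl3 (0.017 to 0.027), also called lower. For Gata2 they were Slc43a2, the guidance ligand Slit3 and the histone methyltransferase Dot1l (0.025 to 0.039), for Gata1 the Rac exchange factor Tiam1, Csda and Rdh13 (0.022 to 0.026), and for Gata6 Pias1, Ezr and Evi5 (0.0074 to 0.013); none of these 9 was called. Within a distance of 0.1 stood 52 genes for Gata4, 125 for Gata5, 43 for Gata2, 85 for Gata1 and 1079 for Gata6, so with 4 arrays these neighbours describe likeness of size and direction and little else.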

How the data were processed

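Per the labels, RNA of whole hearts at embryonic day 9.5 was purified on columns, amplified with amino-allyl nucleotides, labelled with Cy5 and hybridised to 1 array per pool, with 2 Salv CKO and 2 control arrays grouped by title. The deposited intensity values are linear and, from the values, were background-subtracted by the authors (3.37 to 5.99% below 0) and multiplied by 1 factor per array (0.891 to 1.03); no source used here names scanner, software or genome build. Distributions differed between arrays, and the values were quantile normalised, floored at 1 and put on the log2 scale. Pearson's r over all probes was 0.947 between the Salv CKO arrays, 0.946 between the controls and 0.937 to 0.942 across groups. The background limit of 16 compares with a noise SD of 4.36 to 6.28 read from the negative values.

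The platform's table (annotation of 2013) named 1 gene for 21020 probes and left 8902 unnamed. Symbols of the lists were matched to it directly or through RefSeq synonyms (GRCm38.p6). The probe of highest mean stood for a gene. Genes were tested two-sided with limma 3.58.1 in R 4.3.3 (intensity trend, 2.92 prior and 2 residual degrees of freedom) with Benjamini-Hochberg adjustment, and the procedure was checked on simulated data. With 2 pools per group, described as biological replicates, the number of arrays limits the precision. Named genes were all Gata probes, up to 4 called members of each list by size of difference (or the 2 of lowest p), the 3 nearest profiles of each member above background on all arrays, with clone names passed over, and Sav1; other genes are named as chosen after their values were seen or to complete a count. The members, lists and alternatives were chosen with earlier results of these data known; no set test was made.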

Additional observations from a re-analysis of the deposited data

How the results depend on the processing

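Gata4, Gata5, Gata1 and Gata2 stayed below 0 under every alternative run, at -1.68 to -1.15, -1.23 to -0.63, -0.95 to -0.37 and -1.30 to -0.69. With 1 array left out no gene was called (0 higher, 0 lower, 0 Gata genes; 3170 to 3428 genes and 2 to 4 Gata genes at an unadjusted p under 0.05), and the differences ranged from -1.23 to -1.15 for Gata4, from -0.90 to -0.63 for Gata5, from -1.15 to -0.69 for Gata2, from -0.82 to -0.37 for Gata1, from -0.81 to 0.14 for Gata3 and from 0.17 to 0.27 for Gata6; Gata3 turned its sign without Salv CKO pool 1 (0.139) or control pool 2 (0.14). In those fits the lone sample of a group is assumed to vary like the other group. Without the intensity trend 0 genes were called in either direction (3578 at an unadjusted p under 0.05) and 0 Gata genes, with Gata4 at -1.19 (limma adjusted p = 0.125) and Gata5 at -0.77 (0.165). Floors of 16 and 64 left 253 and 257 genes higher, 228 and 234 lower and 1 Gata gene, Gata4; Gata5 was then at -0.77 (0.122 and 0.128), and Gata3 at 0 with the floor of 64. The values as deposited gave 229 genes higher and 3101 lower, Gata2 called at -1.30 (0.0201) and Gata6 at -0.30 (0.180). Centring on the median gave 377 genes higher, Gata2 called at -1.03 (0.0402) and Gata6 at -0.032 (0.895). Higher genes made up 46.3% of all calls after quantile normalisation, 40.6% with the 75th percentiles aligned, 22.3% with medians aligned and 6.88% as deposited. Testing the genes above 16 on all 4 arrays gave 1239 higher and 1437 lower, with Gata2 called at -0.92 (0.0214). With the mean of both probes Gata4 was at -1.15 (0.0319). A replicate block kept 2 Gata genes called, Gata4 (0.0113) and Gata5 (0.0157), and left Gata2 at 0.0504; pools share only a number, and deviations of same-numbered pools correlated at 0.17 over genes. Distinct list genes called numbered 30, against 11 and 7 with floors of 16 and 64, 0 without the intensity trend and 52 with the values as deposited. Relative to cardiomyocyte markers, leaving out those at the ceiling, an alternative chosen after seeing the data, put Gata4 at -0.50, Gata5 at -0.07 and Gata6 at 0.91, against -0.74, -0.32 and 0.67 with all 14; relative to red cell markers without Hba-x Gata1 was at 0.0639, against -0.04 with it. Signal over background limits Gata3 and the dimmer Gata4 probe.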
